A study of Mus musculus with 2 samples.

Results

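The genes described here were the chemokines and the receptors that bind them, taken from the list of genes in the matrices by their symbols. Ligands were the symbols of the Ccl, Cxcl, Cx3cl and Xcl series that end in a number, and receptors those of the Ccr, Cxcr, Cx3cr, Xcr and Ackr series. Cxcl12, which served the study as a marker of a cell type, was left out. The pattern found 55 of the 27998 listed genes: 33 ligands, 18 signaling receptors and 4 atypical receptors. Symbol Ccl19 stood for 2 of these entries, one of them without a molecule in any cell. Both libraries came from male and female Gli1-CreERT2;Ai9 mice of mixed genetic background at 1 month of age, which had received tamoxifen once a day for 3 days and then 3 daily injections of vehicle or of teriparatide at 400 ng per g of body weight. Teriparatide is a fragment of parathyroid hormone that is used to build bone. Cells carrying the red tdTomato label, which marks cells with past activity of the Gli1-CreERT2 driver and their progeny, were sorted from the metaphysis of the femur as negative for CD31, CD45 and Ter119, markers of endothelial, leukocyte and red lineage cells. There was 1 library for each condition. Its cells came from several mice, which the barcodes do not separate, so no value below has a biological replicate, and treatment cannot be told apart from differences between mice or sorts.

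Chemokines are small secreted proteins that steer the movement of leukocytes. Signaling receptors such as Cxcr2 or Ccr2 couple to inhibitory G proteins and drive migration, whereas atypical receptors of the Ackr series bind chemokines without G protein signaling and remove or redistribute them. In bone marrow, stromal cells are a known source of chemokines that retain blood cells in their niches, and myeloid cells make inflammatory chemokines of their own. Expression is given as unique molecular identifiers (UMIs, 1 for each captured mRNA molecule) of a gene as counts per 1e+06 UMIs (CPM), pooling all cells that a class holds in a library, with the exact Poisson 95% interval in parentheses. Values are given for vehicle first and teriparatide second. A count of 0 is set to 3 UMIs where a ratio is formed, and the result is then a bound. The CPM that a count of 0 allows is the upper end of its Poisson interval. Ratios are given as log2 of teriparatide over vehicle CPM with the conditional binomial 95% interval. Intervals cover counting error only, and no p-value is given because cells of 1 library are not replicates. The 3′ counts of different genes are not compared as levels.

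The vehicle library held 549 and the teriparatide library 1217 cells within the limits of the study (200 to 6000 genes and at most 10% mitochondrial UMIs), with medians of 10875 and 14556 UMIs. The libraries shared 1 barcode among these cells. The study also left out hematopoietic cells that expressed Ptprc, the gene of CD45, as contamination of the sort. Such cells were kept here. Each cell was placed in a class by a gate on marker genes, which left 133 of the 1766 cells without a class, and 47 of the 1633 gated cells lay near the limit of the gate. Classes are named after their markers as like a cell type. Chondro-osteoprogenitor (COP)-like cells numbered 69 with vehicle and 278 with teriparatide, preosteoblast (preOB)-like cells 24 and 30, osteoblast (OB)-like cells 120 and 141, and cells like marrow adipogenic lineage precursors (MALPs) 180 and 104. The preOB-like class was the least distinct of these, as 8 and 15 of its cells also had markers of a second class. A further limit is that 4 and 9 of its cells lay near the limit of the gate. In spite of the sort, 20.0% of the vehicle and 47.4% of the teriparatide cells had the markers of hematopoietic cells, among them 18 and 100 mature neutrophil-like, 11 and 131 immature neutrophil-like, 21 and 111 monocyte-like, 10 and 33 B cell-like and 44 and 162 erythroid-like cells. Each of 27 defining markers stood highest in its own class in both libraries, Col2a1 in COP-like cells for example, except Ibsp, which was higher in preOB- than in OB-like cells. These markers came from the lists that set the classes, so this order was largely fixed by the gate and is no check of it. Male cells made up 48.3% of the MALP-like cells with a sex call for vehicle and 90.7% for teriparatide, 39.0% and 91.3% of the OB-like cells and 33.3% and 87.0% of the preOB-like cells, so that sex and treatment cannot be told apart in the pooled values of these classes. Summed over its 12 markers, the neutrophil list reached at most 189 CPM in the 4 mesenchymal classes of the vehicle library and lay at 159 to 281 CPM in those of the teriparatide library, against at least 346760 CPM in neutrophil-like cells.

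Many members lie side by side in the genome (gene positions are from GENCODE vM21, build GRCm38, which is mm10). Members next to each other formed groups: Cxcl5, Cxcl3, Cxcl15, Cxcl1 and Cxcl2 within 147 kb on chromosome 5, Cxcl9 and Cxcl10 within 27.5 kb on the same chromosome, Ccl5, Ccl9, Ccl6, Ccl3 and Ccl4 within 139 kb on chromosome 11, and Ccl2, Ccl7, Ccl11, Ccl12, Ccl8 and Ccl1 within 270.1 kb on it. Receptors Ccr9, Cxcr6, Xcr1, Ccr1, Ccr3 and Ccr2 lay side by side on chromosome 9. Cxcl1 and Cxcl2 are close paralogs that attract neutrophils, and Cxcl9 and Cxcl10 are both known as interferon-induced ligands of Cxcr3. These pairs are shown with their promoters because the class with the highest CPM, averaged over the libraries, differed between the neighbours. Their classes still overlapped. Monocyte-like cells held both Cxcl1 and Cxcl2, and Cxcl9 and Cxcl10 both had their highest vehicle CPM in MALP-like cells. Cxcl14 is shown because it held the most UMIs of all members. The sequences are the 250 bases before the transcription start in RefSeq (GRCm38.p6), read 5′ to 3′ in the direction of the gene, and capitals mark matches to the motifs searched. The regions are chr5:90890995-90891244 on the plus strand, chr5:90903649-90903898 on the plus strand, chr5:92328080-92328329 on the minus strand, chr5:92348890-92349139 on the minus strand and chr13:56296552-56296801 on the minus strand, in this order.
Cxcl1: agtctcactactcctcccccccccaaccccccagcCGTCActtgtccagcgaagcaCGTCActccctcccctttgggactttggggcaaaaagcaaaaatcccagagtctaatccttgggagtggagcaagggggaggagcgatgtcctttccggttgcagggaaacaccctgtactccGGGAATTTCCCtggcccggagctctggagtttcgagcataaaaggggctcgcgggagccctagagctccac
Cxcl2: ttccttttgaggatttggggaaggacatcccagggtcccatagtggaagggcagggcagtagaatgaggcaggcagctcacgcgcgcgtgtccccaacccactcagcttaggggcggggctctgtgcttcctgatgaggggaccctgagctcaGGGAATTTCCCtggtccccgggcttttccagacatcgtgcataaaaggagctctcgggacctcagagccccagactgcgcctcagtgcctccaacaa
Cxcl9: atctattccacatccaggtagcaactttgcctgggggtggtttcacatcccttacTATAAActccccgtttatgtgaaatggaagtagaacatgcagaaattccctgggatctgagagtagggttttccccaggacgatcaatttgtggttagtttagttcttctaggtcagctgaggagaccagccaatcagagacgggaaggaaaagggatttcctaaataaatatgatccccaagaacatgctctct
Cxcl10: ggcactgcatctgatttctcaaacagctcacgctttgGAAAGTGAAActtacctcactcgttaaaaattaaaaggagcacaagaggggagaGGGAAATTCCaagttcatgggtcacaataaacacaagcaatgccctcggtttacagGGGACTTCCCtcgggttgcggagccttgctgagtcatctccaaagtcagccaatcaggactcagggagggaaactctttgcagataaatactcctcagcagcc
Cxcl14: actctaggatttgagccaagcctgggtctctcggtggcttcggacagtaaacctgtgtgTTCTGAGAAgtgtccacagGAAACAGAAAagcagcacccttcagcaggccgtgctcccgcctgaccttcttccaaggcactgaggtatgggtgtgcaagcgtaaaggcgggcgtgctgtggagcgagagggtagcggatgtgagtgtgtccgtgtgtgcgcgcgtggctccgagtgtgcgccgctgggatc

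The motifs were the kappa-B consensus, the core of the interferon-stimulated response element (ISRE, GAAA, any 2 bases, GAAA), TTCNNNGAA (a STAT site) and TGACG (one arm of the cAMP response element), on both strands, and TATAAA on the strand of the gene. A kappa-B match stood 70 to 61 bases before the start of Cxcl1 and 96 to 87 bases before that of Cxcl2, in each case overlapping a second match on the opposite strand that begins 1 base further upstream. Cxcl10 had kappa-B matches at 103 to 94 and at 159 to 150 bases before its start and the ISRE core at 213 to 204, and Cxcl9, its neighbour, had none of these in this window and TATAAA at 195 to 190. Cxcl1 also held TGACG, read on the opposite strand, at 194 to 190 and at 215 to 211. In Cxcl14, the ISRE core lay at 172 to 163 and TTCNNNGAA at 191 to 183. Of all 32851 promoters of the same length, 3.90% held the kappa-B consensus, 2.98% the ISRE core, 7.02% TTCNNNGAA, 17.8% TGACG and 7.59% TATAAA. Promoters were listed for 22 of the 29 members with at least 50 UMIs, of which 4 held kappa-B, 3 the ISRE core, 1 TTCNNNGAA, 1 TGACG and 8 TATAAA. A match describes the letters only, and binding was not measured.

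The members together held 10255 vehicle and 21745 teriparatide UMIs. No UMI was found in the kept cells for 8 of the 55 entries, namely Ccl1, Ccl11, Ccl20, Ccl26, Cxcl15, Ackr2, Ccr8 and the second entry of Ccl19. A further 18 members held fewer than 50 UMIs each, and 29 held at least 50. Of 29 members with at least 20 UMIs in the 9 main classes, 20 had their highest CPM, averaged over the libraries, in a hematopoietic class and 9 in a mesenchymal class, beside 49.3% and 50.7% of all 13430 genes. Signaling receptors were all on one side: 8 of 8 led in a hematopoietic class. Among ligands 11 of 18 and among atypical receptors 1 of 3 did so. The class with the highest CPM was the same in both libraries for 25 of the 29 members, and for 16 of them the interval of its ratio to the next class lay above 1 in both. Among the 9 main classes, smaller classes left out, the leading class stood at least 10-fold above the next for 9 members, in averaged CPM. Among them were Ackr1, Ccl19, Cxcl9, Ccl24, Ccr3, Ccr2, Ccl9 and Ccr7, and the share of all genes was 5.23%. The 10-fold did not hold in each library. With teriparatide Cxcl9 stood at 41.5 CPM in MALP-like and 12.4 CPM in monocyte-like cells. Ccl24 and Ccr3 had only 1 and 2 vehicle UMIs in monocyte-like cells, where they led. Ccr3, Cxcl13 and Ccl7 held fewer than 50 UMIs and are described below because of the 10-fold count or of a 2-fold difference in a class. Outside the main classes, Ccr2, Ccl9 and Ccr7 were also found in T or NK cell-like cells, and Ccr3 and Ccl9 in the 1 osteoclast-like cell.

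**Figure D1:**
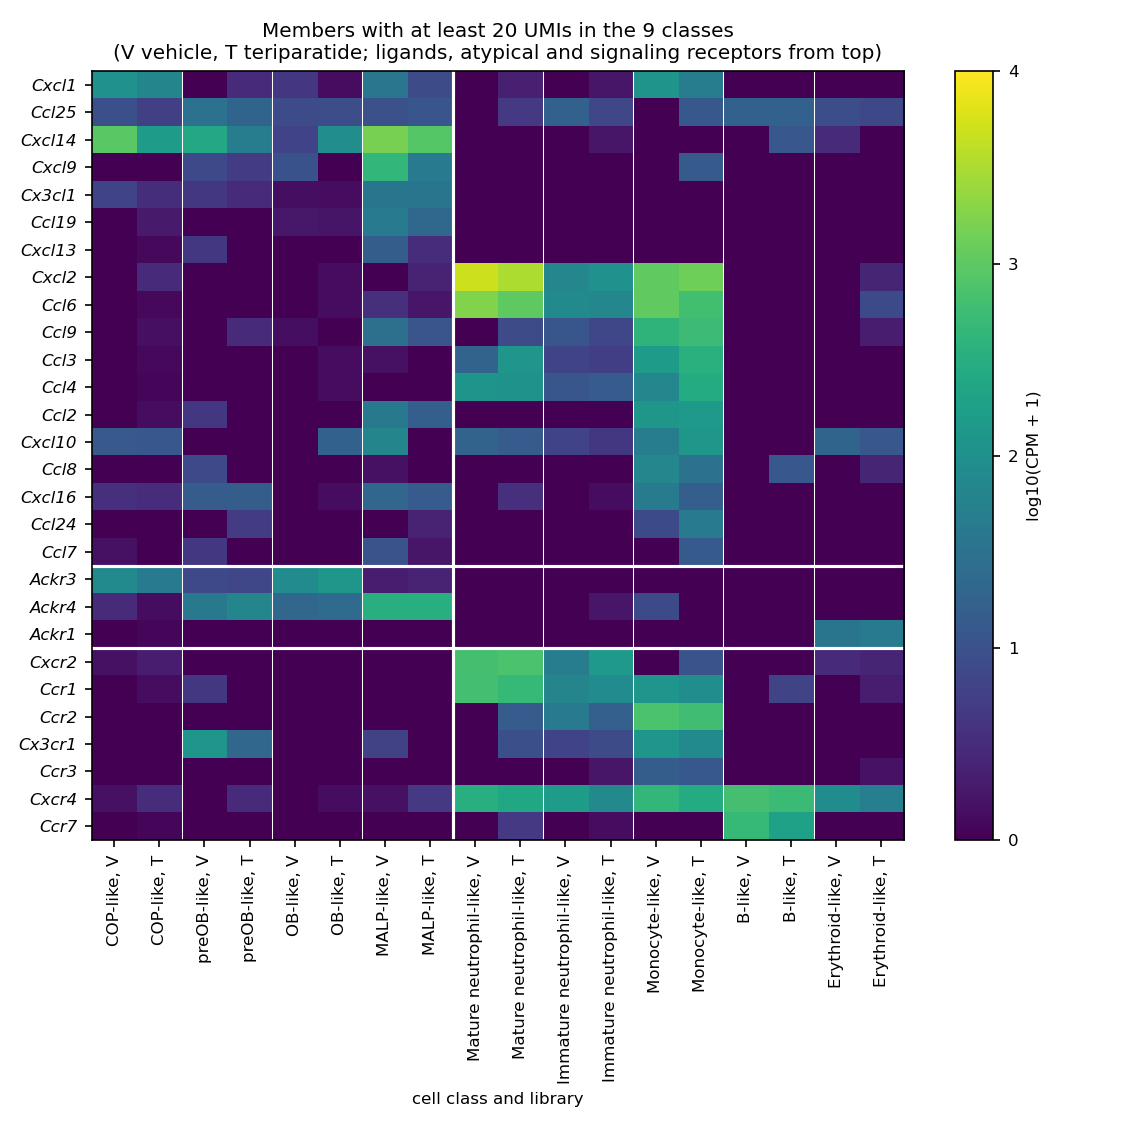
Heat map of log10(CPM + 1) for 28 of the 29 members with at least 20 UMIs (top to bottom, ligands above atypical and then signaling receptors) in the 9 main classes (columns, vehicle left and teriparatide right in each pair). Signaling receptors are dark in the 4 mesenchymal classes at the left, apart from Cx3cr1 in preOB-like cells, whose 37 vehicle and 10 teriparatide UMIs came from 1 cell in each library. Other members are bright in some of these classes, Cxcl14 in COP- and MALP-like, Ackr3 in COP- and OB-like and Ackr4 in MALP-like cells.

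Cxcl14 (ENSMUSG00000021508, chromosome 13, 56288643 to 56296551) held more UMIs than any other member in the mesenchymal cells. Its product is a chemokine of epithelia and stroma whose receptor is not settled. In MALP-like cells it stood at 1494 CPM (1441 to 1548) with vehicle and 885 CPM (836 to 936) with teriparatide, and 167 of 180 cells (92.8%) and 93 of 104 cells (89.4%) held at least 1 UMI. In COP-like cells it stood at 948 CPM (905 to 993) with vehicle and 159 CPM (151 to 168) with teriparatide, a log2 ratio of -2.58 (-2.68 to -2.47) or 5.97-fold lower with teriparatide. preOB-like cells had 256 CPM with vehicle and 46.5 CPM with teriparatide (log2 -2.46). OB-like cells were higher instead, with 13 and 255 UMIs, 5.47 CPM with vehicle and 89.1 CPM with teriparatide, a log2 ratio of 4.03 (3.23 to 4.96). The levels thus lay lower in the teriparatide library in COP-, preOB- and MALP-like cells and higher in OB-like cells. In MALP-like cells the log2 ratio of -0.76 (-0.85 to -0.66) did not reach 2-fold. None of the mature neutrophil-like and monocyte-like cells held a UMI of Cxcl14, and 1 of 44 and 0 of 162 erythroid-like cells did, which serves as the background share. Teriparatide cells held 2 UMIs among 131 immature neutrophil-like cells and 2 UMIs in 2 of 33 B cell-like cells (11.1 CPM).

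Within these classes Cxcl14 was uneven. Cells were also clustered without the members, and the splits given here were chosen after their values were seen. In a COP-like cluster led by R3hdml, Sox18 and Col15a1, Cxcl14 stood at 2887 CPM in 17 vehicle cells and at 222 CPM in 31 teriparatide cells. In the cluster led by Meg3, Cytl1 and Cpm the values were closer, 629.6 and 380.5 CPM, and in the one led by Ppa1, Fxyd2 and Ndufa4l2 they were 127 and 14.3 CPM. The cluster with Col10a1, Ihh and Aldh1a3 in the lead had the opposite order, with 0 UMIs in 4 vehicle cells, which allows up to 47.4 CPM, and 241 CPM (201 to 287) in 16 teriparatide cells, of which 3 held all 127 UMIs. Clusters left unnamed held 15 vehicle and 20 teriparatide OB-like cells (led by Pf4, Cma1 and Prss34) and 8 and 17 erythroid-like cells (led by C1qa, C1qb and C1qc). A COP-like cluster led by Chad, with 62 cells, was found in the teriparatide library alone and had 1.72 CPM of Cxcl14. The 5 cells with the most Cxcl14 held 66.8% of its vehicle UMIs in COP-like cells, and without the 5 highest cells of each library the log2 ratio was -1.57 in place of -2.58. Among OB-like cells, those with a UMI of Mepe, a matrix protein gene of late osteoblasts and osteocytes, had 89.6 CPM of Cxcl14 in 10 vehicle cells and 709 CPM in 30 teriparatide cells. Those without Mepe had 3.03 and 19.1 CPM. In preOB-like cells the log2 ratio was -0.81 when cells with up to 20% mitochondrial UMIs were kept.

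**Figure D2:**
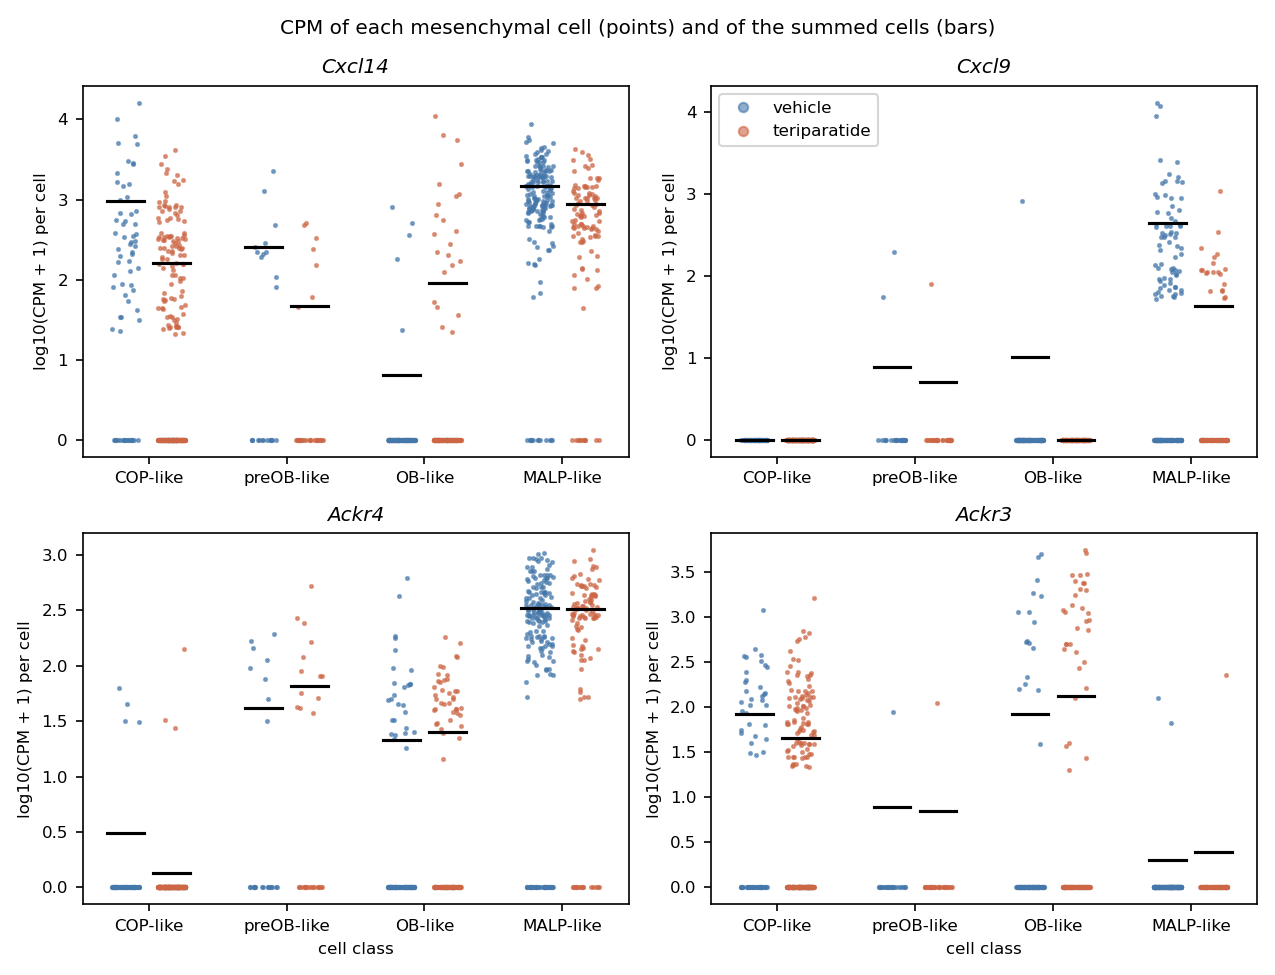
CPM of each mesenchymal cell on the log10(CPM + 1) scale (points, vehicle blue and teriparatide orange) and CPM of the summed cells of the class (black bars) for Cxcl14, Cxcl9, Ackr4 and Ackr3 in the 4 mesenchymal classes. Most MALP-like cells of both libraries hold Cxcl14 and Ackr4, while Cxcl9 spreads over a wide range in the vehicle cells and Ackr3 is high in a minority of OB-like cells.

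Cxcl9 (ENSMUSG00000029417, chromosome 5, 92321347 to 92328079), an interferon-gamma-induced ligand that recruits T cells through Cxcr3, was found mainly in MALP-like cells, where it stood at 441 CPM (412 to 471) with vehicle and 41.5 CPM (31.4 to 53.8) with teriparatide. The log2 ratio was -3.41 (-3.82 to -3.02), 10.6-fold lower with teriparatide, and 72 of 180 cells (40.0%) and 20 of 104 cells (19.2%) held a UMI, or 22.6% and 4.95% of the cells after each cell was thinned to 2500 UMIs. A few cells held much of it: the 5 highest cells carried 64.6% of the vehicle UMIs, and without the 5 highest of each library the log2 ratio was -3.14. By sex, the gene had 816 and 40.7 CPM in 69 vehicle and 78 teriparatide male cells (log2 -4.32) but 69.0 and 94.0 CPM in 74 and 8 female cells (log2 0.45). Cxcr3, the receptor, held 21 UMIs in all kept cells, none of them in a mesenchymal class. The neighbour Cxcl10 (ENSMUSG00000034855, chromosome 5, 92346638 to 92348889) came from few cells. In MALP-like cells its 135 UMIs gave 67.2 CPM in the vehicle library, from 6 cells, 1 of which carried 92. The count was 0 in the teriparatide library, where 3 UMIs would be 2.19 CPM. The 48 UMIs of OB-like teriparatide cells, against none in the vehicle library, were all in 1 cell. In COP-like cells it stood at 12.1 CPM with vehicle and 11.1 CPM with teriparatide. Monocyte-like cells had 48.7 CPM (19.6 to 100.4) with vehicle and 132 CPM (114 to 153) with teriparatide, from 4 and 27 cells, a log2 ratio of 1.44 (0.37 to 2.77).

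Most ligands of MALP-like cells had a lower CPM in the teriparatide library. Of 13 members with at least 20 UMIs in this class, 8 were past 2-fold lower and 0 past 2-fold higher, where 3.56% and 3.42% of all 9696 genes were. The median log2 ratio of the members was -1.47, and that of all genes -0.05. Besides Cxcl9 and Cxcl10 these were Ccl19, Cxcl1, Cxcl13, Ccl2, Ccl7 and Ccl9. Ccl19 (ENSMUSG00000071005, chromosome 4, 42754525 to 42756577), a ligand of Ccr7 that guides lymphocytes, stood at 41.3 CPM (32.9 to 51.2) with vehicle and 20.4 CPM (13.6 to 29.5) with teriparatide, log2 -1.02 (-1.69 to -0.39), and led in this class in both libraries. Near-identical copies of Ccl19 exist in the mouse genome, so its counts may be split or lost and remain uncertain. Ccl2 (ENSMUSG00000035385, chromosome 11, 82035571 to 82037453), which draws monocytes through Ccr2, stood at 40.3 CPM (32.0 to 50.1) with vehicle and 14.6 CPM (8.90 to 22.5) with teriparatide, with 28 of 180 cells (15.6%) and 10 of 104 cells (9.62%) holding a UMI. Its relative Ccl7 had 19 and 1 UMIs, and Cxcl13, a B cell attractant, had 28 and 3 UMIs, of which the 5 highest cells held 75.0% in the vehicle library. Ccl9, known as a myeloid chemokine and ligand of Ccr1, stood at 29.4 CPM with vehicle and 10.2 CPM with teriparatide (log2 -1.53).

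Other ligands of MALP-like cells did not reach 2-fold. Cx3cl1 (ENSMUSG00000031778, chromosome 8, 94772009 to 94782427), the membrane-bound ligand of Cx3cr1, stood at 35.4 CPM (27.6 to 44.6) with vehicle and 34.2 CPM (25.2 to 45.5) with teriparatide, a log2 ratio of -0.05 (-0.61 to 0.50), with 55 of 180 cells (30.6%) and 28 of 104 cells (26.9%) holding a UMI. Cxcl16 (ENSMUSG00000018920, chromosome 11, 70453983 to 70459984), the membrane-bound ligand of Cxcr6, had 19.9 CPM with vehicle and 13.1 CPM with teriparatide. Ccl25 (ENSMUSG00000023235, chromosome 8, 4325210 to 4360020), the ligand of Ccr9, had 8.97 CPM with vehicle and 10.9 CPM with teriparatide. Ccl25 was found at a low level in most classes, with 0 UMIs in the vehicle mature neutrophil- and monocyte-like cells, at 4.77 to 30.4 CPM in the mesenchymal classes and at 8.22 and 6.49 CPM in erythroid-like cells, and no class stood clear of the next. Among male MALP-like cells alone 5 of 11 members were past 2-fold lower, and among female ones, with 8 teriparatide cells, 1 of 9. The share of all genes was not computed for each sex. Neutrophil markers summed to 79.2 CPM in the vehicle and 261 CPM in the teriparatide MALP-like cells, and monocyte markers to 29.4 and 16.0 CPM, and their part in these levels was not tested.

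**Figure D3:**
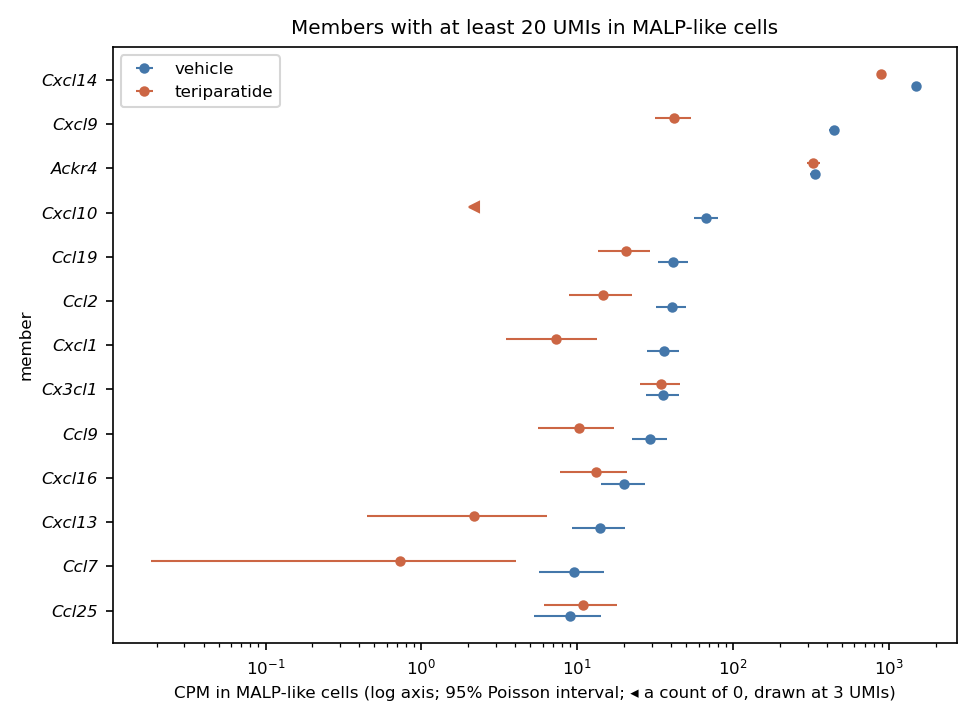
CPM in MALP-like cells (log axis) of the 13 members with at least 20 UMIs there, vehicle in blue and teriparatide in orange, with exact Poisson 95% intervals. Ackr4, Cx3cl1 and Ccl25 coincide within their intervals, and the teriparatide points of Cxcl9, Ccl19, Ccl2, Cxcl1, Ccl9, Cxcl13 and Ccl7 lie to the left of the vehicle points, while the triangle of Cxcl10 is a count of 0 drawn at 3 UMIs.

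Cxcl1 (ENSMUSG00000029380, chromosome 5, 90891241 to 90893115), the neutrophil attractant that acts through Cxcr2, was found in COP-like cells besides Cxcl14, at 104 CPM (89.5 to 119) with vehicle and 67.2 CPM (61.8 to 73.0) with teriparatide, with 25 of 69 cells (36.2%) and 66 of 278 cells (23.7%) holding a UMI. The log2 ratio was -0.62 (-0.86 to -0.38). COP-like cells led for this gene in the teriparatide library and monocyte-like cells in the vehicle library. Of its COP-like cells, the cluster led by Meg3, Cytl1 and Cpm had 191 and 147 CPM, and that led by Ppa1 41.5 and 27.1 CPM. In MALP-like cells it stood at 35.9 CPM (28.1 to 45.2) with vehicle and 7.28 CPM (3.49 to 13.4) with teriparatide (log2 -2.30 (-3.42 to -1.34)), and in OB-like cells at 3.37 CPM with vehicle and 0.350 CPM with teriparatide. Monocyte-like cells had 17 and 65 UMIs, from 2 and 11 cells. Cxcl2, the neighbour of Cxcl1, was almost absent from these same mesenchymal classes, with 0 UMIs in all 4 vehicle classes and 18 UMIs in COP-, 1 in OB- and 2 in MALP-like teriparatide cells. Neutrophil markers in these classes were likewise higher in the teriparatide library, as given above, and their part in these counts was not tested. Over COP-like cells 8 members had at least 20 UMIs, 2 were past 2-fold lower (Cxcl14 and Cx3cl1) and 1 higher (Cxcr4), where 4.46% and 5.35% of all genes were. Cx3cl1 had 10 and 20 UMIs and Cxcr4 1 and 20 UMIs, and both intervals of their ratios included 0. In OB-like cells 2 of 6 members were past 2-fold higher (Cxcl14 and Cxcl10) and 1 lower (Cxcl9, whose 22 vehicle UMIs were in 1 cell), beside 4.69% and 3.21% of all genes. In preOB-like cells 2 of 3 were lower (Cxcl14 and Cx3cr1, the latter from 1 cell in each library, female with vehicle and male with teriparatide) and 0 higher, beside 8.38% and 5.1%.

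Cxcl2 (ENSMUSG00000058427, chromosome 5, 90903871 to 90905938), which neutrophils and macrophages make and which attracts neutrophils through Cxcr2, held more UMIs than any other member in mature neutrophil- and monocyte-like cells. In mature neutrophil-like cells it stood at 5004 CPM (4598 to 5436) with vehicle and 3169 CPM (3048 to 3293) with teriparatide, log2 -0.66 (-0.79 to -0.52). 11 of 18 cells (61.1%) and 60 of 100 cells (60.0%) held a UMI. In the neutrophil-like cluster led by Gm5483, Il1b and Ifitm1, 13925 CPM was found in 9 vehicle and 7506 CPM in 42 teriparatide cells. Immature neutrophil-like cells had 70.7 CPM with vehicle and 104 CPM with teriparatide. Monocyte-like cells had 1044 CPM (884 to 1225) with vehicle and 1287 CPM (1228 to 1349) with teriparatide, with 6 of 21 cells (28.6%) and 55 of 111 cells (49.5%) holding a UMI. In the vehicle library 96.7% of those monocyte-like UMIs came from 5 cells. The pooled log2 ratio of 0.30 (0.06 to 0.55) in monocyte-like cells had the opposite sign by sex. It was -0.58 (-0.98 to -0.15) among male and -0.24 (-0.61 to 0.13) among female cells.

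Ccl6 (ENSMUSG00000018927, chromosome 11, 83587882 to 83593087), a myeloid chemokine, stood at 1737 CPM (1501 to 1999) with vehicle and 1003 CPM (935 to 1074) with teriparatide in mature neutrophil-like cells and at 1037 CPM (877 to 1218) with vehicle and 611 CPM (571 to 654) with teriparatide in monocyte-like cells. It was lower in the teriparatide library in both, by less than 2-fold, with log2 ratios of -0.79 (-1.02 to -0.56) and -0.76 (-1.02 to -0.50). Ccl9, which lies next to Ccl6 on chromosome 11 (ENSMUSG00000019122, chromosome 11, 83572919 to 83578636), was in contrast mainly a gene of monocyte-like cells, at 397 CPM (301 to 514) with vehicle and 545 CPM (507 to 586) with teriparatide, against 0 and 7.30 CPM in mature neutrophil-like cells. The neighbours thus differed in neutrophil-like cells, one being found in 13 of 18 cells (72.2%) and 75 of 100 cells (75.0%) and the other in 0 and 4 of 100 cells (4%).

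Ccl3 and Ccl4 (ENSMUSG00000000982, chromosome 11, 83647844 to 83649355 and ENSMUSG00000018930, chromosome 11, 83662584 to 83664683), inflammatory chemokines that act on Ccr1, were higher in the teriparatide library in monocyte-like cells. Ccl3 stood at 160.1 CPM (102 to 240.3) with vehicle and 349 CPM (318 to 382) with teriparatide, log2 1.12 (0.52 to 1.80), and Ccl4 at 69.6 CPM (33.4 to 128) with vehicle and 289.9 CPM (262 to 319.9) with teriparatide, log2 2.06 (1.16 to 3.13). 7 of 21 cells (33.3%) and 62 of 111 cells (55.9%) held Ccl3 and 5 of 21 cells (23.8%) and 41 of 111 cells (36.9%) Ccl4. Of the teriparatide UMIs, 156 of Ccl4 lay in 4 cells and 87 of Ccl3 in 6 cells that also held C1qa, a complement gene of tissue macrophages. In the cells without C1qa, Ccl3 stood at 165 and 304 CPM and Ccl4 at 82.5 and 188 CPM, vehicle first. Classes taken from clusters gave a log2 ratio of 1.26 for Ccl4. In mature neutrophil-like cells Ccl3 had 2 and 101 UMIs, 92.1% of the latter in 5 cells, and Ccl4 116 CPM with vehicle and 114 CPM with teriparatide. Ccl2 was also found in monocyte-like cells, with 132 CPM (79.6 to 207) with vehicle and 145 CPM (125 to 166) with teriparatide. The pooled log2 ratio of 0.13 (-0.55 to 0.89) gave no settled direction. By sex it was -0.27 among 2 vehicle and 68 teriparatide male cells and -0.70 among 8 and 12 female cells, and both intervals included 0.

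The monocyte-like cells were not uniform in their chemokines. All 10 vehicle and 41 teriparatide UMIs of Ccl8 (ENSMUSG00000009185, chromosome 11, 82115185 to 82116799), a ligand related to Ccl2, were in cells that also held C1qa, of which there were 11 and 20, and none were in the 10 and 91 cells without it. Only 4 vehicle and 4 teriparatide cells held these UMIs, and none of them had a sex call. The class that led for Ccl8 was B cell-like with classes from clusters and among female cells, and erythroid-like among male cells. Ccr3, a receptor known from eosinophils, was likewise found only in cells with C1qa in this class, with 2 and 16 UMIs. Ccl24 (ENSMUSG00000004814, chromosome 5, 135569937 to 135573049), an eosinophil attractant, was seen only in cells without C1qa, with 1 vehicle UMI and 58 teriparatide UMIs, of which 49 were in 1 cell. The counts of 0 in cells with C1qa allow up to 165 and 43.3 CPM of Ccl24. Cells without C1qa had 8.25 and 45.2 CPM (34.3 to 58.4 for the latter), so these counts do not separate the 2 kinds of cells. Over the class 4 of 16 members were past 2-fold higher (Cxcl10, Ccl24, Ccl3 and Ccl4) and 3 lower (Cxcl1, Cxcl16 and Ccl8), where 10.5% and 6.96% of all genes were. After thinning, the log2 ratio of Cxcl1 in Monocyte-like cells was 0.47 and the log2 ratio of Ccl8 in Monocyte-like cells 0.0151. Without cells that held markers of a second class, the log2 ratio of Ccl24 in Monocyte-like cells was -0.0287. Cxcl16 had 6 and 21 UMIs in this class and an interval that included 0. In mature neutrophil-like cells 1 of 7 members was higher (Ccl3) and 0 lower, beside 12.2% and 5.88%. Only 2 sexed monocyte-like vehicle cells were male and 8 female, against 68 and 12 in the teriparatide library, so that sex and treatment cannot be told apart here either.

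**Figure D4:**
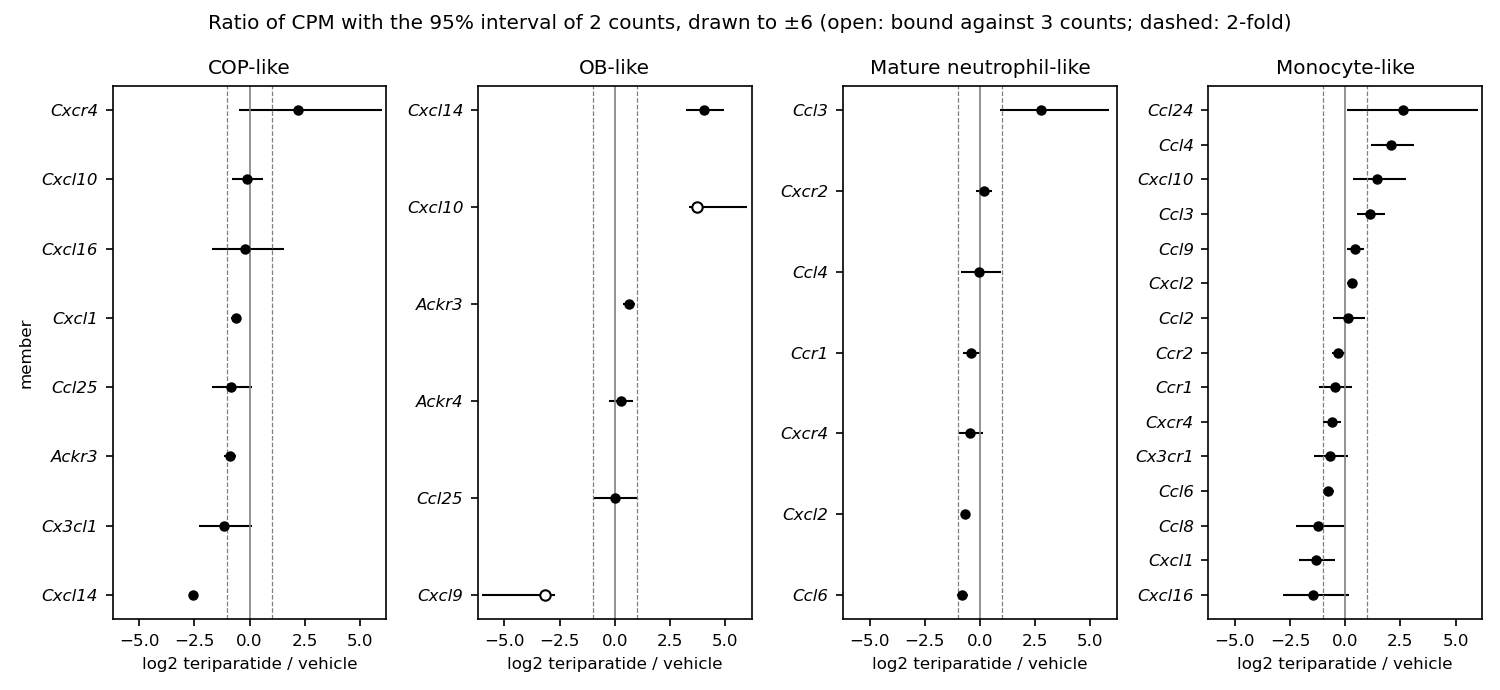
Log2 of teriparatide over vehicle CPM (points) with the conditional binomial 95% interval (lines, drawn to 6 in each direction) for the members described here with at least 20 UMIs in COP-, OB-, mature neutrophil- and monocyte-like cells. Cxcl14 is the lowest point in COP-like cells and the highest in OB-like cells, and open circles mark bounds where 1 library had a count of 0.

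A pair of ligands belonged to small classes. Ccl5 (ENSMUSG00000035042, chromosome 11, 83525778 to 83530518), a T and NK cell chemokine, held 239 vehicle UMIs, all in the single T or NK cell-like cell of that library, and 1132 teriparatide UMIs in 16 cells, of which 627 lay in 5 of 7 T or NK cell-like cells. Xcl1 (ENSMUSG00000026573, chromosome 1, 164931644 to 164935527), which NK cells release to attract dendritic cells, had 93 UMIs in 10 teriparatide cells and none in the vehicle library, and 45 of them were in 4 T or NK cell-like cells. With so few cells no level is compared between the libraries.

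The atypical receptors found differed in the class where they stood highest, though OB-like cells held both Ackr3 and Ackr4. Ackr4 (ENSMUSG00000079355, chromosome 9, 104084157 to 104126933), which takes up Ccl19, Ccl21 and Ccl25, was a gene of MALP-like cells. It stood there at 335 CPM (309.9 to 361) with vehicle and 327 CPM (297 to 359) with teriparatide, with 142 of 180 cells (78.9%) and 88 of 104 cells (84.6%) holding a UMI, or 54.2% and 45.5% after thinning. The log2 ratio was -0.03 (-0.21 to 0.14), and in male cells it was -0.23 and in female cells 0.65. preOB-like cells followed with 40.5 CPM with vehicle and 64.7 CPM with teriparatide, then OB-like cells with 20.2 CPM with vehicle and 24.5 CPM with teriparatide, whereas COP-like cells had 4 and 3 UMIs in all. OB-like cells with a UMI of Mepe, where Ackr3 was high as given below, held 1 UMI (14.9 CPM) and 0 UMIs (up to 12.7 CPM) of Ackr4. Those without Mepe had 20.3 and 27.2 CPM of Ackr4. The hematopoietic classes together held 3 UMIs. Its ligands Ccl19 and Ccl25 were measured in the same MALP-like cells, as given above.

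Ackr3 (ENSMUSG00000044337, chromosome 1, 90203980 to 90216751), which binds Cxcl11 and Cxcl12, was found in COP- and OB-like cells and hardly in MALP-like cells, where 2 and 2 UMIs were counted. COP-like cells had 81.9 CPM (69.5 to 95.8) with vehicle and 44.4 CPM (40.0 to 49.1) with teriparatide, a log2 ratio of -0.88 (-1.16 to -0.60). In COP-like cells it was highest in the cluster with Col10a1, Ihh and Aldh1a3 in the lead, the former a gene of hypertrophic chondrocytes, at 527 CPM in 4 vehicle and 213 CPM in 16 teriparatide cells. OB-like cells had 83.3 CPM (72.1 to 95.7) with vehicle and 130.4 CPM (117 to 144) with teriparatide, log2 0.65 (0.39 to 0.90). The OB-like cells with a UMI of Mepe carried 1209 CPM (960.2 to 1503, 10 cells) and 1011 CPM (899 to 1134, 30 cells), and those without it 50.6 and 30.7 CPM. The intervals of the Mepe-holding cells overlapped between the libraries, and 10 of 120 vehicle and 30 of 141 teriparatide OB-like cells were of this kind. In male OB-like cells the log2 ratio of Ackr3 was -0.58, and in female ones, with 9 teriparatide cells, 3.00. Ackr1 (ENSMUSG00000037872, chromosome 1, 173331886 to 173333750), the Duffy antigen receptor of red cells, was found in erythroid-like cells and, among the other main classes, as 1 UMI in COP-like cells, at 34.9 CPM (20.3 to 55.9) with vehicle and 45.5 CPM (36.3 to 56.3) with teriparatide, in 11 of 44 cells (25.0%) and 50 of 162 cells (30.9%).

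Signaling receptors were found mainly in the hematopoietic classes. Summed over the 18 of them, OB-like cells held 0 and 1 UMI, MALP-like cells 12 and 7, preOB-like cells 38 and 11, of which 37 and 10 were the Cx3cr1 UMIs of 1 cell in each library, and COP-like cells 3 and 33, of which Cxcr4 had 20. In CPM, preOB-like cells thus held 128 and 22.2 and erythroid-like cells 90.4 and 54.1, whereas mature neutrophil-like cells held 1611 and 1504 CPM and monocyte-like cells 1469 and 1090 CPM, vehicle first. Neutrophil markers summed to 13.7 and 159 CPM in COP-like cells, and their part in the receptor counts of that class was not tested. Cxcr2 (ENSMUSG00000026180, chromosome 1, 74153989 to 74161246), the neutrophil receptor for Cxcl1 and Cxcl2, stood in mature neutrophil-like cells at 653 CPM (512 to 822) with vehicle and 744 CPM (686 to 805) with teriparatide, in 17 of 18 cells (94.4%) and 96 of 100 cells (96.0%). Immature neutrophil-like cells had 48.9 CPM (22.4 to 92.9) with vehicle and 144 CPM (130.3 to 159.8) with teriparatide, a log2 ratio of 1.56 (0.62 to 2.70), but -0.17 with classes taken from clusters. Of these immature cells 7 and 39 lay in an unnamed cluster led by Elane, Fcnb and Prtn3, genes of neutrophil precursors. Ccr1 (ENSMUSG00000025804, chromosome 9, 123962124 to 123968692), a receptor of Ccl3, Ccl6 and Ccl9, had 627 CPM (488 to 792) with vehicle and 478 CPM (432 to 528) with teriparatide in mature neutrophil-like cells and 125 CPM with vehicle and 89.8 CPM with teriparatide in monocyte-like cells.

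Ccr2 (ENSMUSG00000049103, chromosome 9, 124101950 to 124113557), the receptor for Ccl2 that lets monocytes leave the marrow, stood in monocyte-like cells at 731 CPM (598 to 885) with vehicle and 584 CPM (544 to 626) with teriparatide, in 11 of 21 cells (52.4%) and 89 of 111 cells (80.2%). Its log2 ratio was -0.32 (-0.62 to -0.02). Cells of this class with C1qa held 3 of its 105 vehicle UMIs and 33 of its 800 teriparatide UMIs. In CPM, Ccr2 stood there at 134 (27.6 to 392) with vehicle and 387 (267 to 544) with teriparatide. Cells without C1qa had 841 CPM (686 to 1021) with vehicle and 597 CPM (556 to 641) with teriparatide. In the teriparatide library Ccr2 also stood at 354 CPM in dendritic cell-like cells (7 of 10 cells) and 318 CPM in T or NK cell-like cells (7 of 7 cells). Cx3cr1 (ENSMUSG00000052336, chromosome 9, 119901616 to 120069879), the receptor of Cx3cl1, had 125 CPM (74.3 to 198) with vehicle and 78.1 CPM (64.0 to 94.4) with teriparatide in monocyte-like cells. Cxcr4 (ENSMUSG00000045382, chromosome 1, 128588199 to 128592293), which retains blood cells in the marrow, was the most widely found receptor, with 654 CPM (465 to 894) and 523 CPM (422 to 639.5) in B cell-like cells, 446 and 292 CPM in monocyte-like, 331 and 246 CPM in mature neutrophil-like and 88.3 and 50.9 CPM in erythroid-like cells. Its pooled CPM was lower in the teriparatide library in the 5 hematopoietic classes, past 2-fold in immature neutrophil-like cells only (log2 -1.05 (-1.62 to -0.43)), where the sign changed to 2.02 without the 5 highest cells of each library, 11 cells being all there were in the vehicle library. By sex the sign of Cxcr4 differed from the pooled one in B cell-like cells, with 295 and 488 CPM among 1 vehicle and 11 teriparatide male cells (log2 0.73) and 422 and 502 CPM among 4 and 15 female cells (log2 0.25). It also differed in male mature neutrophil-like cells (log2 0.22). Ccr7 (ENSMUSG00000037944, chromosome 11, 99144196 to 99155077), the receptor of Ccl19, led in B cell-like cells with 28 and 35 UMIs, 469.8 CPM (312 to 679) with vehicle and 195 CPM (136 to 271) with teriparatide, log2 -1.27 (-2.03 to -0.50). The log2 ratio of Ccr7 in B-like cells was 0.00352 without the 5 highest cells of each library, 10 cells being all of this class with vehicle. Ccr9 (ENSMUSG00000029530, chromosome 9, 123678439 to 123784330), the receptor for Ccl25, was found in dendritic cell-like cells, with 24 UMIs in 2 vehicle and 19 UMIs in 4 of 10 teriparatide cells. A single T or NK cell-like cell held a further 20 teriparatide UMIs of Ccr9, and cells without a class 18 vehicle and 16 teriparatide UMIs. Over immature neutrophil-like cells 1 of 8 members was past 2-fold higher (Cxcr2) and 2 lower (Cxcr4 and Ccr2, whose 42 teriparatide UMIs were in 1 cell), where 5.23% and 20% of all genes were. Over B cell-like cells 1 of 2 was lower and 0 higher, beside 7.88% and 7.78%, and over erythroid-like cells 0 of 3 were past 2-fold, beside 7.31% higher and 3.7% lower.

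**Figure D5:**
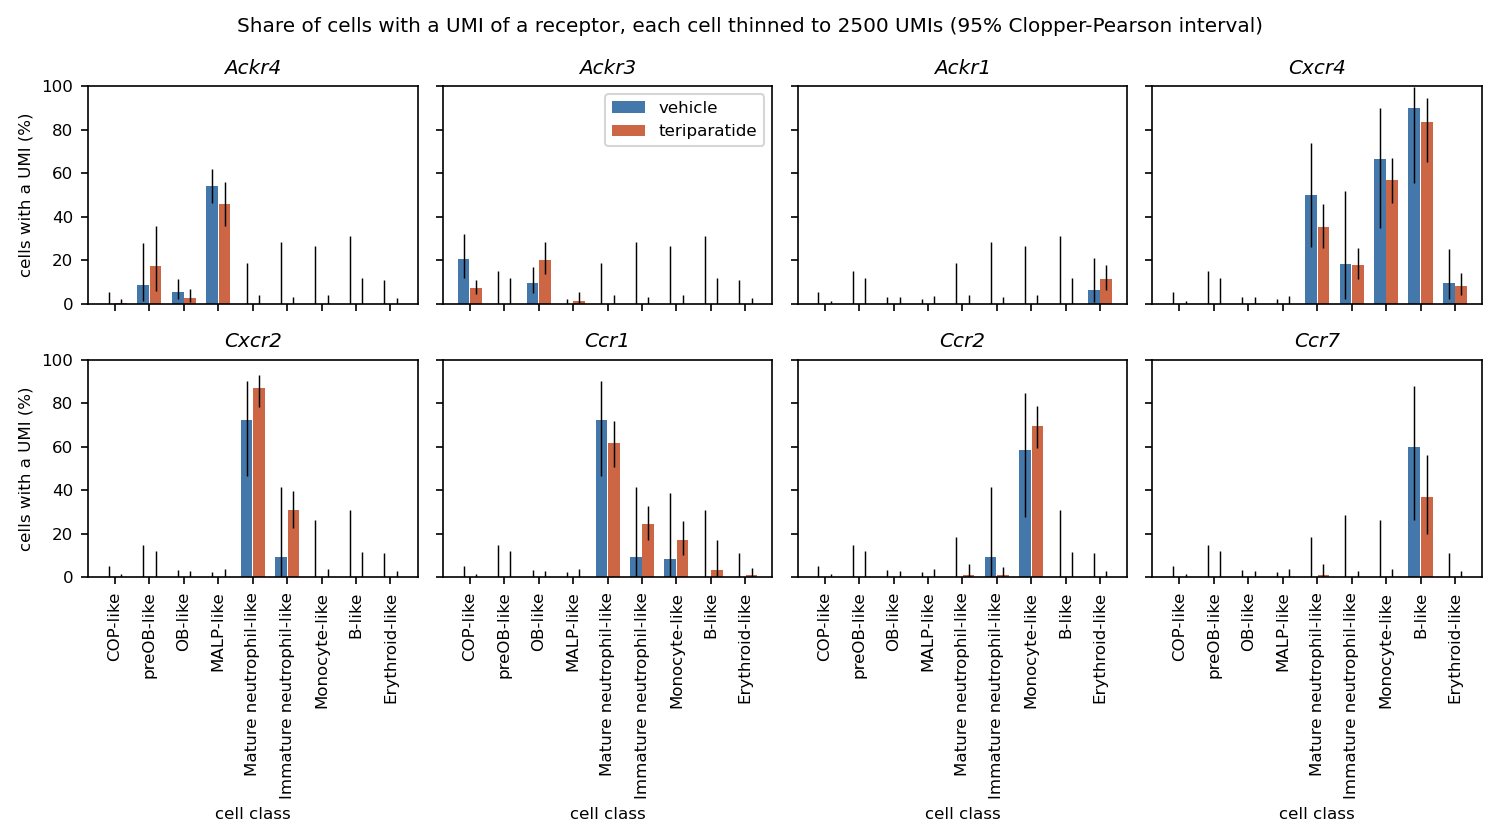
Share of cells with a UMI of 8 receptors in the 9 main classes (bars, vehicle blue and teriparatide orange, each cell thinned to 2500 UMIs) with the Clopper-Pearson 95% interval. Ackr4 is highest in MALP-like cells, Ackr3 in COP- and OB-like cells and Ackr1 in erythroid-like cells, while the bars of Cxcr2, Ccr1, Ccr2 and Ccr7 stand in hematopoietic classes and are at or near 0 in the 4 mesenchymal classes.

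Related genes were taken from lists written out with the members. Of 10 relatives outside the symbol pattern, Mif, a cytokine that binds Cxcr2 and Cxcr4, stood at 713 and 484 CPM in COP-like cells (log2 -0.56), and Ccrl2, a chemerin-binding receptor relative, at 494 and 153 CPM in monocyte-like cells (log2 -1.69). Of the relatives with at least 20 UMIs, 2 of 4 were past 2-fold higher in COP-like cells, beside 5.35% of all genes, and none was lower. They were Ccl27a, a skin chemokine, at 3.17 and 11.6 CPM, and Ccrl2 at 0.528 and 3.82 CPM, the latter from 1 and 32 UMIs. In OB-like cells 1 of 3 was higher, Ccl27a with 5 and 15 UMIs (log2 1.32, with an interval that included 0), beside 4.69%. In mature neutrophil-like cells 1 of 2 relatives was past 2-fold lower (Ccrl2), beside 5.88% of all genes. In monocyte-like cells 2 of 4 were so (Ccrl2 and Pf4), beside 6.96%. Mif was the 1 of 3 past 2-fold higher in immature neutrophil-like cells, beside 5.23%. No relative in these classes was past 2-fold the other way. In MALP-like cells 0 of 3 of these relatives, 1 of 12 genes of receptor signaling and 2 of 16 NF-kappa-B and cytokine genes were past 2-fold lower and none was higher, beside 3.56% and 3.42% of all genes. They were Arrb2, an arrestin, at 7.97 and 2.91 CPM, Nfkb2, an NF-kappa-B subunit, at 34.9 and 14.6 CPM (log2 -1.26), and Tnfaip3, a feedback inhibitor of NF-kappa-B, at 10.5 and 4.37 CPM. The median log2 ratio of the 16 genes was -0.26, against -0.05 for all genes. Gnai2, the main inhibitory G protein subunit downstream of these receptors, differed little in MALP-like cells, 483 and 463 CPM. In monocyte-like cells 2 of 20 NF-kappa-B and cytokine genes were past 2-fold higher (Rela and Relb) and 2 lower (Nfkb2 and Tnfaip3), near the 10.5% and 6.96% of all genes, Tnfaip3 with 529 and 255 CPM. In immature neutrophil-like cells 6 of 18 genes of this list were lower and 0 higher, beside 20% and 5.23%.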

How the data were processed

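The deposited matrices hold counts of UMIs per gene and barcode, which the authors made from 10x Genomics 3′ reads with Cell Ranger on mm10. The labels and methods name Cell Ranger 2.1.0 and the matrix header 3.1.0. Cells with 200 to 6000 genes and at most 10% mitochondrial UMIs were kept, giving 7991948 vehicle and 21895554 teriparatide UMIs. A cell joined the class with the highest mean scaled marker score if that score was at least 0.25, led by 0.05 and rested on at least 3 detected markers. No doublet caller was run, and the 144 gated cells with markers of a second class were left out as an alternative. Counts were summed by class and library. Ratios were counted for members with at least 20 UMIs in a class, and 2-fold was the limit. The ratio script was tested on simulated counts. Members with at least 50 UMIs were named, in full if past 2-fold in a class or among the 5 with the most UMIs in it. The values of 1 member, which enters the counts, are not reported here. Members and lists were chosen with earlier results of these data known. With 1 library per condition no test was possible. Shares were also computed after thinning each cell to 2500 UMIs, without shallower cells. Alternatives changed the mitochondrial limit, gene limit, class assignment, sex, scaling, depth, fold and UMI minimum. Promoters came from RefSeq GRCm38.p6, matched by symbol for 40 members. Python 3.11.15, scanpy 1.11.5, scipy 1.17.1, numpy 2.4.6 and pandas 2.3.3 were used.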

Additional observations from a re-analysis of the deposited data

Results flagged for a closer look

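The ratio of teriparatide to vehicle had opposite signs in different cell classes for some members, and the differences were not tested, since each condition had 1 library. Cxcl14 had log2 ratios of teriparatide over vehicle of 4.03 in OB-like cells, -2.58 in COP-like cells and -2.46 in preOB-like cells. Cxcl10 had 3.73 in OB-like cells, 1.44 in monocyte-like cells and -4.94 in MALP-like cells, where the first and the last are bounds against a count of 0 and the OB-like UMIs lay in 1 cell.

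Male and female cells of a class also had ratios of opposite sign for some members, and these differences were not tested either. In COP-like cells Cxcl10 stood at a log2 ratio of 2.30 among male and -4.42 among female cells, the latter a bound. The female value rests on 19 UMIs in 9 vehicle cells, 17 of them in 1 cell, and on 0 UMIs in 25 teriparatide cells. Ackr3 in OB-like cells stood at -0.58 among 39 vehicle and 95 teriparatide male cells and at 3.00 among 61 and 9 female cells. Ackr4 in MALP-like cells stood at -0.23 among 69 and 78 male and 0.65 among 74 and 8 female cells. Cxcl2 in mature neutrophil-like cells stood at -0.88 among 6 and 50 male cells and 1.02 among 2 and 7 female cells.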

How the results depend on the processing

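Of 66 log2 ratios, 28 were past 2-fold, and 207 of their 217 alternative values kept the sign. These values include scaling by the median ratio over genes, which could not turn a sign because its shifts were under 2-fold. The shares of all genes past 2-fold are given with each class above. For 19 of the 28 no alternative turned the sign. Alternatives that left no value, for example where no UMI remained, were not counted. Among the 19 were Cxcl9 and Cxcl10 in OB-like cells, whose UMIs lay in 1 cell each. Without the 5 highest cells these 2 ratios had no value. The sign turned for Cx3cr1 in preOB-like cells with the mitochondrial limit at 20% (1.83), and for Cxcl9 in MALP-like cells and Ccr2 in immature neutrophil-like cells among female cells (0.45 and 0.71). Thinning turned it for Cxcr4 in immature neutrophil-like cells (0.21) and for Cxcl1 and Ccl8 in monocyte-like cells (0.47 and 0.0151). Leaving out the 5 cells with the most UMIs did so for Cxcr4 in immature neutrophil-like cells (2.02) and the log2 ratio of Ccr7 in B-like cells (0.00352). Classes from clusters gave -0.17 for Cxcr2 in immature neutrophil-like cells. Leaving out cells with markers of a second class, an alternative chosen after seeing the data for ratios, counts and leading classes, gave -0.0287 as the log2 ratio of Ccl24 in Monocyte-like cells. The cause was not tested in any of these.

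The 8 members lower in MALP-like cells were 5 among male cells, 1 among female cells and 4 after thinning, and the 0 higher were 1 among female cells. Members tested numbered 8 in COP-, 3 in preOB-, 6 in OB- and 13 in MALP-like cells, and 16 of these ratios were past 2-fold. The count was 7 among female cells, 10 after thinning and 9 with at least 50 UMIs. Over the 5 hematopoietic classes 12 ratios were past 2-fold, against 7 among male cells, 7 after thinning and 19 at 1.5-fold. Members tested there numbered 7 in mature and 8 in immature neutrophil-, 16 in monocyte-, 2 in B cell- and 3 in erythroid-like cells. Thinning, the UMI minimum and the sexes leave fewer UMIs or cells by construction. Shares of all genes past 2-fold are given above for each class in the main setting. They were not computed for the alternatives, whose counts therefore have no background. The median ratio of genes with at least 50 UMIs was -0.37 in immature neutrophil-like and -0.21 in COP-like cells. It was -0.15 in preOB-like and -0.10 in OB-like cells. The shift was under 2-fold in every main class, so scaling by it could not turn the sign of a ratio past 2-fold. The leading class was the same for 23 to 29 of the 29 members over the alternatives, and 8 to 11 were led by a mesenchymal class. Depth limits the small classes most, with 59603 UMIs in vehicle B cell-like cells. No paired analysis was possible because each condition had 1 library.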

Other observations

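Barcodes outside the limits on genes and mitochondrial UMIs numbered 737 for vehicle and 925 for teriparatide. Members stood there at 437 and 462 CPM in sum, against 1283 and 993 CPM in the kept cells.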
